A study of Mus musculus with 2 samples.

Results

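The goblet-like cells described here are 206 of 6983 barcodes from the lungs of C57BL/6 mice, 139 of 3298 in the Control library and 67 of 3685 in the NAPH library. They were chosen from the measured values. A cell was a member when its UMIs (molecules counted once by their molecular tag) of Scgb3a1 and Bpifb1 together were at least 150 per 10,000, Sftpc was below 500 per 10,000, the ciliated genes Foxj1, Ccdc153 and Tmem212 together were below 10 per 10,000, and the proliferation genes Mki67 and Top2a together had fewer than 3 UMIs. The study profiled Epcam+ lung epithelial cells, purified by flow cytometry, in droplets with 3' counting. The Control group is 1 library of C57BL/6 lung epithelium for which the labels give no agent. The NAPH group is 1 library of the same strain and tissue, which the series title ties to an airway injury induced by NAPH. The sources used here give no dose, time after injury, age or number of animals. With 1 library in each group no difference between groups can be tested, and all intervals below are exact 95% intervals that cover counting error only.

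Goblet cells are secretory cells of the airway surface that store gel-forming mucins in granules and release them with antimicrobial proteins, which together form the mucus carried away by cilia. Club cells are the main secretory cells of the mouse bronchiole and are known for the secretoglobin Scgb1a1 and for enzymes that oxidise and conjugate inhaled chemicals. Mouse airways hold few goblet cells at rest, and club cells are known to take on mucous features during inflammation. Scgb3a1 encodes a small secretoglobin of the larger airways, Bpifb1 and Bpifa1 encode secreted proteins with a bactericidal/permeability-increasing fold, Reg3g encodes an antimicrobial C-type lectin, and Muc5b encodes a gel-forming mucin.

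The gate was passed by 145 Control and 75 NAPH cells, of which the Sftpc limit removed 6 and 3, the ciliated limit 0 and 0, and the limit on dividing cells 0 and 5. Scgb3a1 alone reached 150 per 10,000 in 138 Control and 66 NAPH members, so the gate was in effect one on Scgb3a1. Just inside it lay Control cells at 158.2, 176.7 and 182.3 per 10,000 and NAPH cells at 150.8, 154.3 and 164.5. Just outside lay Control cells at 139.1, 140.3 and 143.9 and NAPH cells at 133.3, 134.7 and 138.4. Scgb1a1 was at least 1000 per 10,000 in all 139 Control members and in 62 of the 67 NAPH members. The cells of comparison were club cells with Scgb1a1 of at least 1000 per 10,000 that stayed below 150 for Scgb3a1 and Bpifb1 and met the same other limits, 634 in Control and 117 in NAPH. The 2 libraries shared 14 barcode sequences, and 0 of these were members.

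The members made up 4.21% of Control barcodes (3.55 to 4.96) and 1.82% of NAPH barcodes (1.41 to 2.30), a ratio of shares of 0.431 (0.317 to 0.581). Club comparator cells made up 19.2% and 3.18%, a ratio of 0.165 (0.134 to 0.201). There were 21.9 goblet-like cells for each 100 club comparator cells in Control and 57.3 in NAPH. The libraries held 41699755 and 38497783 UMIs. The median member held 25523 UMIs and 2911 genes (Control) or 22943 UMIs and 3204 genes (NAPH), against 30372.5 and 20568 UMIs in club comparator cells. The whole libraries had medians of 8303.5 and 9417 UMIs per cell. All but 4 members, all NAPH, lay above the lowest total found in the Control library, 4212 UMIs.

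The 3 markers that the gate did not read were each present in the members of both libraries, although Reg3g was found in few NAPH cells. Muc5b was detected in 139 of 139 Control and 64 of 67 NAPH members, Bpifa1 in 127 and 61, and Reg3g in 138 and 9. Club cell markers were high: 8 club genes, which include Scgb1a1, summed to 5382 per 10,000 in Control and 4007 in NAPH members. Club comparator cells held 6505 and 4443. The 4 serous genes summed to 4.07 and 18.2 in members and 0.682 and 7.74 in club comparator cells. AT2 cells held 30.4 and 15.5, so the sum in Control members lay below 0.2 times theirs. In NAPH members the median was 8.94 and the highest cell 557. The 3 variant club genes summed to 0.0599 and 1.46 in members and 0.0761 and 3.91 in club comparator cells. Markers of ciliated cells, leukocytes, lymphoid cells and basal cells were low. The 7 ciliated genes, which include Foxj1, Ccdc153 and Tmem212 of the gate, summed to 0.402 per 10,000 in Control members and 0.482 in NAPH members. The sum of 5 general leukocyte genes was 0.282 and 0.266. All 5 lymphoid genes were at 0 in both libraries, and of 5 basal cell genes Krt14, Trp63 and Ngfr were at 0 in both. Krt15 had UMIs in both libraries and Krt5 in NAPH, and the basal genes summed to 0.154 and 0.161. The 7 AT2 cell genes, which include Sftpc of the gate, summed to 94.6 per 10,000 in Control members (18.5 to 525 per cell) and 156 in NAPH members (31.6 to 344). Club comparator cells, under the same limits, held 105 and 245, and AT2 cells held 2888 and 2576. The low ciliated and AT2 sums were thus partly set by the gate. The 5 macrophage genes, which include Lyz2 of AT2 cells, summed to 8.28 and 24.1, with highest members at 108 and 505. All 5 had UMIs in Control members, while Marco and Csf1r were at 0 in NAPH members. Club comparator cells held 5.02 and 17.8, and AT2 cells 357 and 305. The part of AT2 and macrophage RNA in the differences between libraries was not tested. Genes whose level, in the group where they were higher, lay below 0.2 times that of another cell class are said below to be within reach of free RNA.

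The sequences upstream of the marker genes are shown because they are the regulatory DNA nearest to the genes that define these cells. Each is the 150 bases before an annotated start in the RefSeq promoter table (GRCm38.p6), 5′ to 3′ on the gene's strand. Capitals mark matches on either strand to a forkhead motif (TGTTTNC, in 10.3% of all 32851 promoter windows of this length), a STAT motif (TTCNNNGAA, in 4.09%) or a TATA box (TATAAA, in 7.57%). Scgb3a1 (chr11:49663445-49663594, plus strand) holds 1 forkhead match 55 bases before the start. Bpifb1 has 2 starts in the table, of which the first (chr2:154190668-154190817, plus strand) holds 1 forkhead match and the second (chr2:154200230-154200379, plus strand) 1 STAT match. Bpifa1 (chr2:154142730-154142879, plus strand) and Reg3g (chr6:78468875-78469024, minus strand) hold 1 TATA box each, 29 and 27 bases before the start.
Scgb3a1: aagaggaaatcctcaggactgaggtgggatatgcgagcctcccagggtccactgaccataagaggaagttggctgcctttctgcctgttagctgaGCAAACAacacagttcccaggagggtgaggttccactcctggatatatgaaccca
Bpifb1, first start: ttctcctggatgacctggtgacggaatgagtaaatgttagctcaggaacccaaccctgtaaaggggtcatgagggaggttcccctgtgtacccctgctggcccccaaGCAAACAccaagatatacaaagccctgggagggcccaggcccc
Bpifb1, second start: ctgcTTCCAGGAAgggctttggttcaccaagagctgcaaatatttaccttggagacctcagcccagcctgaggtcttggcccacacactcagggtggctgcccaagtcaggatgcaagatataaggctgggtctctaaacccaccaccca
Bpifa1: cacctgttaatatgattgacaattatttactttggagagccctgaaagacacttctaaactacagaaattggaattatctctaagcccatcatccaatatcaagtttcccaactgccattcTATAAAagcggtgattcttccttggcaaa
Reg3g: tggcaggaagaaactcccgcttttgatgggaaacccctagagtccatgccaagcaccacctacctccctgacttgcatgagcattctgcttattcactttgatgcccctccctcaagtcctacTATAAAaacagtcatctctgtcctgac
A match is a description of letters in this window and does not show that a factor binds there. Muc5b lies at chr7:141839070-141873084.

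In single Control members Scgb3a1 ranged from 138 to 1393 UMIs per 10,000 around a median of 526, and the NAPH members had a median of 540. Bpifb1 had a median of 35.6 in Control and 17.5 in NAPH. Both genes set the gate, and their values are descriptions. Bpifa1, which the gate did not use, had a median of 30.5 in Control and 3.81 in NAPH, with highest cells of 975 and 829. Members without a single Bpifa1 UMI occurred in both libraries. Muc5b had a median of 6.32 and a highest cell of 60.1 in Control, and 10.4 and 239 in NAPH. Reg3g had a median of 23.8 and a highest cell of 289 in Control, and in NAPH a median of 0 with a highest cell of 925.

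**Figure D1:**
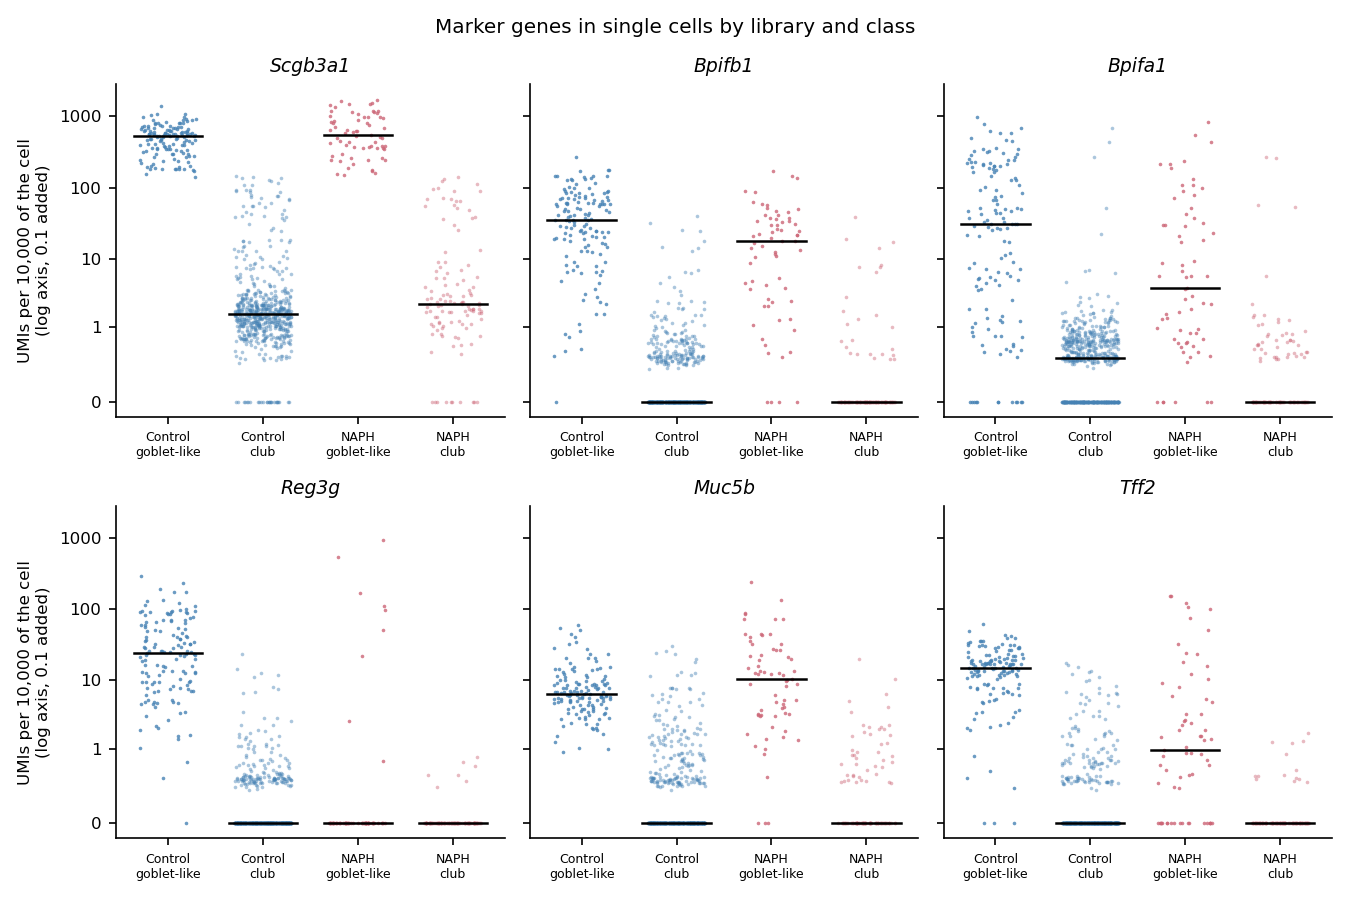
UMIs per 10,000 of the cell (vertical axis, log scale with 0.1 added) of marker genes in single cells, 1 point a cell and a bar at the median, for goblet-like and club comparator cells of the Control and NAPH libraries. Scgb3a1 separates the classes because the gate used it, Muc5b lies higher in goblet-like cells of both libraries, and Reg3g is at 0 in 58 of the 67 NAPH goblet-like cells.

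Against the club comparator cells of the same library, the members carried more RNA for mucus and for secreted defence proteins, and less for genes such as the chloride channel gene Clic3 and the glutathione transferase gene Gstk1, while detoxifying enzymes as a group differed in both directions. Levels are given as CPM, the UMIs of a gene in counts per 1000000 UMIs summed over a class in 1 library. Ratios are ratios of CPM divided by the median ratio of all genes with at least 20 UMIs in the 2 groups, so that the median gene has a ratio of 1. That median ratio was 1.16 in Control and 0.957 in NAPH. Of 10455 genes tested in Control, 692 (6.62%) were at least 2-fold higher and 788 (7.54%) at least 2-fold lower in goblet-like cells, or 1014 and 546 without the division by the median. Of 7605 genes tested in NAPH, 424 (5.58%) were higher and 404 (5.31%) lower. Of the 7569 genes tested in both libraries, 173 (2.29%) were higher in both and 128 (1.69%) lower in both. Those 173 are 46.8% of the Control and 41.7% of the NAPH genes that were higher. Because the same cells were gated on 2 secretory genes, these differences describe the gated cells and are not independent of the gate.

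The trefoil peptide gene Tff2, whose product is secreted with mucus, was at 1613 CPM in Control goblet-like cells and 45.2 CPM in Control club cells, a ratio of 30.9 (28.7 to 33.3). In NAPH it was at 1150 and 11.3 CPM, a ratio of 107 (73.6 to 161) that was 13.4 with a gate of 300, where cells between 150 and 300 join the comparator. Muc5b was at 727.5 and 47.7 CPM in Control (ratio 13.2, 12.2 to 14.3) and at 1322 and 61.1 CPM in NAPH (22.6, 19.2 to 26.8). Both genes were thus far above club cells in either library. Bpifa1 was at 10686 and 191 CPM in Control (ratio 48.4, 46.7 to 50.1) and at 5357 and 567 CPM in NAPH (9.88, 9.34 to 10.5), and without the highest cell of each class at ratios of 81.6 and 16.2. The Bpifa1 ratio was 30.9 in Control with a gate of 300 and 164 in NAPH against club cells with Scgb1a1 of at least 2000. Reg3g was at 4187 and 31.3 CPM in Control (116, 106 to 126) and at 2202 and 2.82 CPM in NAPH (817, 396 to 2034). The NAPH value of Reg3g rests on 7 UMIs in club cells, and was 498 without the highest cell of each class. With a gate of 300 the Reg3g ratio was 44.0 in Control and 38.1 in NAPH.

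6 further genes completed the 10 highest by the library with the smaller ratio. Pglyrp1, a peptidoglycan recognition protein that binds bacterial walls, was at 343 against 42.1 CPM in Control and 893 against 145 CPM in NAPH, ratios of 7.04 and 6.43. Ifitm1, an interferon-induced membrane protein, had ratios of 6.71 and 6.33. Fxyd3, a regulator of the sodium pump, was at 372 against 37.7 CPM and 388 against 72 CPM, ratios of 8.54 and 5.63. The ATP-gated channel gene P2rx4 had ratios of 3.57 and 4.80. Pigr, the receptor that carries polymeric immunoglobulin across epithelia, was at 419 against 102 CPM and 439 against 114 CPM, ratios of 3.56 and 4.03. Chad, a leucine-rich matrix protein, had ratios of 3.55 and 4.57. Pigr and Chad thus differed by about the same factor in both libraries.

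The 10 lowest genes were Clic3, Gstk1, Creg1, Sftpd, Rasl11a, Dcxr, Mettl7a1, Cldn10, Emb and Cat, with ratios between 0.235 and 0.536 in Control and between 0.349 and 0.622 in NAPH. Clic3, an intracellular chloride channel protein, was at 52.5 CPM against 193 CPM in Control and 107 against 322 CPM in NAPH. The glutathione transferase Gstk1 was at 33.4 against 102 CPM and 39.5 against 115 CPM. The carbonyl reductase Dcxr was at 200 against 478 CPM and 322 against 611 CPM, and Cat, the peroxide-degrading catalase, which did not reach 2-fold in either library, at 138 against 222 CPM and 86.5 against 145 CPM. Cldn10, a claudin of paracellular ion channels, had ratios of 0.359 and 0.578. Sftpd, a surfactant-associated lectin also made by AT2 cells, was at 556 against 956 CPM and 1517 against 3146 CPM, with 4130 and 6445 CPM in AT2 cells. The Control members lie below 0.2 times that AT2 level and the club cells above it, and the part of AT2 cell RNA in this difference was not tested. Scgb1a1, which set the comparator, was lower in the members (ratios 0.689 and 0.899), while the secretoglobin Scgb3a2 was higher (2.24 and 1.65).

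**Figure D2:**
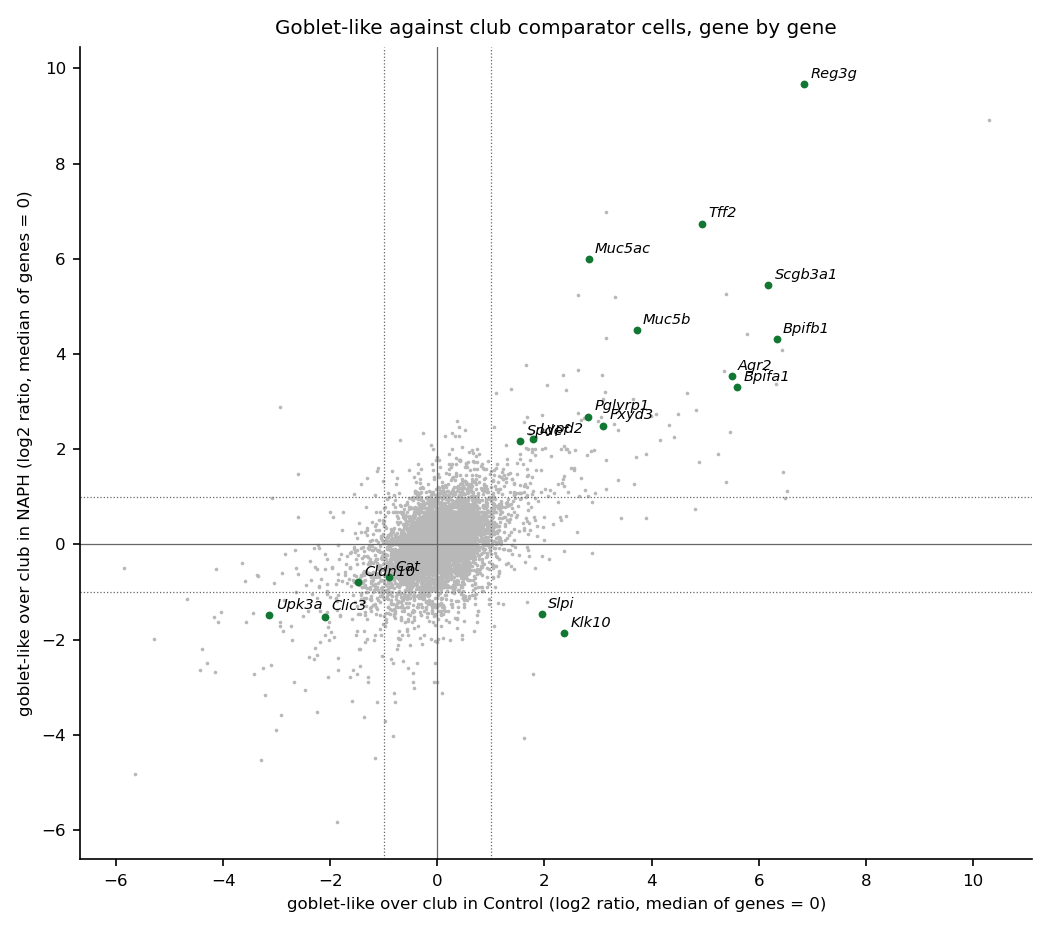
Log2 ratio of goblet-like over club comparator cells in Control (horizontal axis) and in NAPH (vertical axis), 1 point a gene tested in both libraries, with the median gene at 0 on each axis, dotted lines at 2-fold and selected genes named. Reg3g, Tff2, Bpifa1 and Muc5b lie high on both axes, while Clic3 and Upk3a lie low on both.

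Among gene groups, the enzymes and partners of mucin granules were among those with the highest ratios to club cells in both libraries. Of 5 mucins tested in Control, 3 were higher (Muc4, Muc5ac, Muc5b) and 0 lower, and of 5 in NAPH 2 were higher (Muc5ac, Muc5b). The cell-surface mucin Muc1 was similar in both classes, with ratios of 1.42 and 0.963. Of 17 mucin maturation and granule genes tested in Control, 12 were higher and 0 lower with a median log2 ratio of 1.66, and of 14 in NAPH 8 were higher and 0 lower with a median of 1.77. Over all genes tested the median is 0 by construction. Agr2, an endoplasmic reticulum disulfide isomerase that mucins need to fold, had ratios of 45.2 and 11.5, the latter 18.8 without the highest cell of each class. Qsox1, a sulfhydryl oxidase of the secretory pathway, was at 321 against 88 CPM in Control and 537 against 138 CPM in NAPH, ratios of 3.16 and 4.07. The O-glycosylation enzymes Galnt7 and Galnt12 had ratios of 5.96 and 4.33 in Control and 3.94 and 3.61 in NAPH. Clca1, a secreted metalloprotease of mucus, was at 80.7 CPM in Control and 186 CPM in NAPH members against 1 UMI in each comparator, ratios of 1256 (224 to 49782) and 483 (86.0 to 19140). Without the highest cell of each class the comparators held 0 UMIs of Clca1, and the members were at least 306-fold and 112-fold higher against a floor of 3 counts over the group. The NAPH ratio was 3.26 with a gate of 300. Of 41 secretory pathway and unfolded protein response genes tested in Control 2 were higher and 0 lower, and of 39 in NAPH also 2 and 0, with medians of 0.15 and 0.24. These shares of higher genes are close to the 6.62% and 5.58% of all genes.

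Secreted defence genes were more mixed. For scale, 6.62% of all genes were higher and 7.54% lower in Control, and 5.58% and 5.31% in NAPH. Of 20 such genes in Control 9 were higher and 2 lower (8 of the 20 within reach of free RNA, median log2 ratio 0.70), and of 20 in NAPH also 9 and 2 (3 within reach, median 0.74). Ltf, the iron-binding lactoferrin, was at 377 against 36.5 CPM in Control and 1573 against 732 CPM in NAPH, ratios of 8.92 and 2.25. Lypd2, a Ly6-family surface protein, was at 1507 against 375 CPM and 1094 against 248 CPM, ratios of 3.47 and 4.61. The acute phase gene Hp was lower in Control (0.485) and had a ratio of 0.599 in NAPH, and the chitinase-like Chil1 had 0.936 and 0.368. Apart from Bpifa1, the BPI fold family members tested were Lbp (ratios 6.73 and 2.21) and Bpifb5 (14.8 and 3.74), the latter from 20 and 14 UMIs in the members. Interferon-induced genes were higher in 7 of 18 tested in Control and 8 of 16 in NAPH with 0 lower in each, and Ifit1 had ratios of 3.21 and 6.42, the latter 0.57 on the log2 scale and so below 2-fold with a gate of 300.

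Among transcription factors, 11 of 38 tested in Control were higher and 4 lower, and 9 of 35 in NAPH were higher and 2 lower. Spdef and Foxa3, which are known to drive goblet cell differentiation, had ratios of 2.93 and 8.56 in Control and 4.49 and 8.29 in NAPH. Levels were low, with Spdef at 9.42 CPM in Control and 25.9 CPM in NAPH members. Klf4, a factor of epithelial differentiation, was at 61 against 5.39 CPM and 73.5 against 13.3 CPM, ratios of 9.79 and 5.79. Sox21 had 42.2 (15.2 to 163) and 38.5 (6.28 to 1584), from 38 UMIs in the members against 4 in Control and 24 against 1 in NAPH. Nkx2-1, the lung lineage factor, had 0.489 and 0.511. Sox9 had 54.7 (17.3 to 277) in Control, from 37 against 3 UMIs, and too few UMIs in NAPH to be tested. Notch pathway genes were higher in 2 of 14 in Control and 1 of 12 in NAPH, and Hey1, a Notch-induced repressor, was the gene higher in both (3.14, within reach of free RNA, and 13.6). Over all genes, 6.62% were higher and 7.54% lower in Control, and 5.58% and 5.31% in NAPH. The Notch count in NAPH and the counts of lower transcription factors are near these shares.

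Genes known from type 2 immunity were higher in 10 of 16 tested in Control (5 of the 16 within reach of free RNA) and 7 of 15 in NAPH, and lower in 3 each. Clca1, Fcgbp, Spdef and Foxa3, higher in both libraries, were also counted above among mucin maturation and granule genes or transcription factors. Chil3, counted as higher in Control with a ratio of 4.37, had 0.928 without the highest cell of each class. The shares over all genes were 6.62% higher and 7.54% lower in Control, and 5.58% and 5.31% in NAPH. Il13ra1, a subunit of the interleukin-13 receptor, was at 117 against 28 CPM in Control and 56.8 against 20.1 CPM in NAPH, ratios of 3.60 and 2.95. Retnla, the secreted resistin-like molecule alpha, had ratios of 2.32 and 2.09, the latter 1.65 against club cells with Scgb1a1 of at least 2000. The acidic chitinase gene Chia1 was among the lower genes and stood at 19.8 CPM in NAPH members against 1181 CPM in NAPH club cells (0.0175).

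Detoxifying genes differed from club cells in both directions. The counts in this paragraph stand beside 6.62% higher and 7.54% lower over all genes in Control, and 5.58% and 5.31% in NAPH. Of 46 xenobiotic metabolism genes tested in Control 8 were higher and 5 lower with a median log2 ratio of −0.09, and of 40 in NAPH 8 were higher and 8 lower with a median of −0.13. Higher in both libraries were Adh7, an alcohol and retinol dehydrogenase (126 against 17.7 CPM and 97.6 against 8.05 CPM, ratios 6.16 and 12.7), Gsto1, an omega-class glutathione transferase (2005 against 337 CPM and 2906 against 1129 CPM, ratios 5.14 and 2.69), the aldehyde dehydrogenase Aldh3a1 (3.41 and 3.86), Gstm5 (2.19 and 2.14) and the sulfotransferase Sult1d1 (6.46 and 2.61). Of 23 NRF2 target genes in Control 4 were higher and 1 lower, and of 20 in NAPH 0 were higher and 3 lower. Ion and water transport genes were higher in 7 of 25 in Control and 5 of 23 in NAPH. Among them were the chloride channel Ano1 (2.07 and 5.50) and the water and glycerol channel Aqp3 (42.2 and 2.48). The chemokine Cxcl17 had ratios of 2.22 and 2.23, and the neutrophil chemokine Cxcl5 was at 184 against 1.72 CPM in Control (92.3, and 23.9 with a gate of 300) and 139 against 66.4 CPM in NAPH (2.19).

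The remaining groups ranged from no gene to a large share past 2-fold, where all genes gave 6.62% higher and 7.54% lower in Control, and 5.58% and 5.31% in NAPH. Tight junction and adhesion genes were higher in 0 of 23 in Control and 2 of 22 in NAPH, glycolysis and hypoxia genes in 0 of 19 and 2 of 18, and MHC class II genes, all 6 within reach of free RNA, in 0 of 6 in each. Acute phase and innate signalling genes were higher in 7 of 21 in Control and 5 of 17 in NAPH, and lower in 2 each. Proteases and their inhibitors were higher in 6 of 26 and lower in 4 in Control, and higher in 1 of 25 and lower in 6 in NAPH. S100 and annexin genes were higher in 6 of 17 in Control and 2 of 17 in NAPH. S100a6, a calcium-binding protein, was at 861 against 50 CPM in Control (14.8) and 691 against 494 CPM in NAPH (1.46, within reach of free RNA). Of 19 p53 target genes in Control 3 were higher and 1 lower (7 of the 19 within reach of free RNA). Of 15 in NAPH 2 were higher and 6 lower (4 of the 15 within reach of free RNA).

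**Figure D3:**
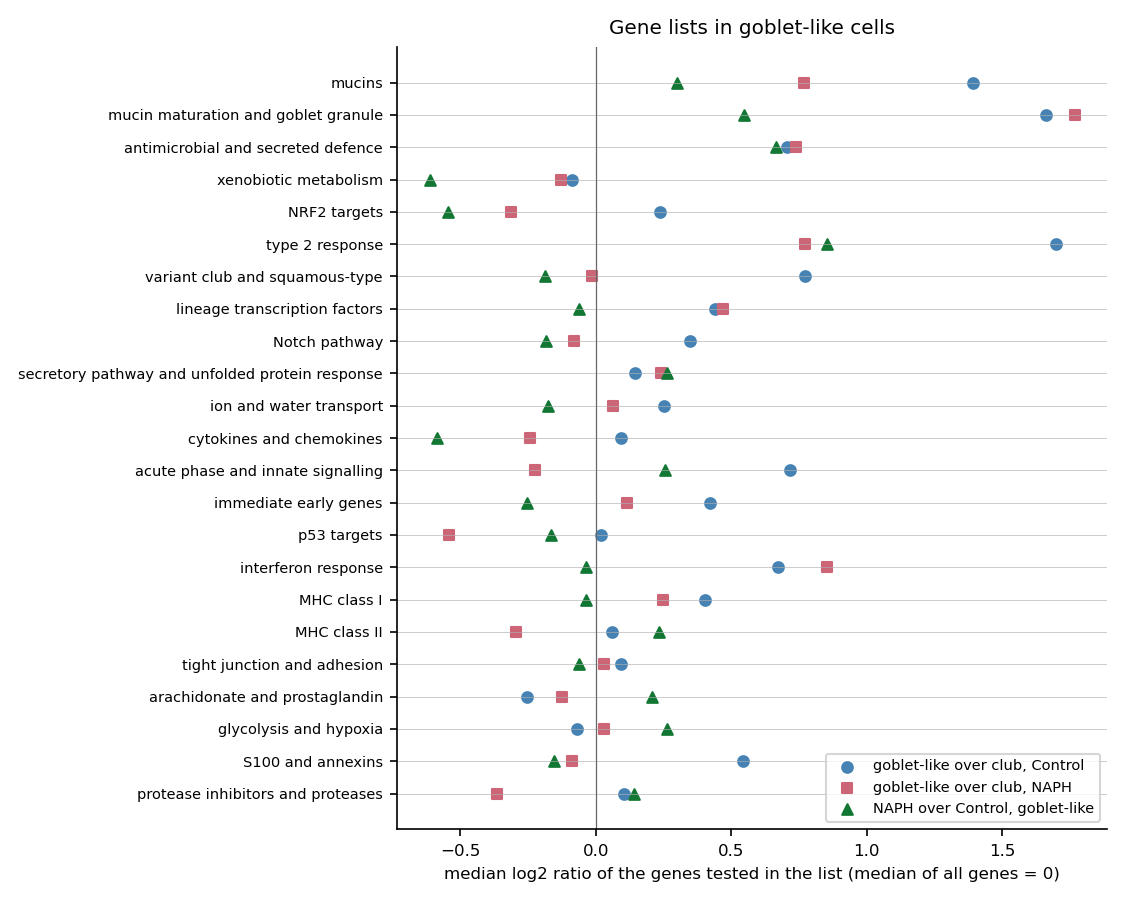
Median log2 ratio of the genes tested in each list (horizontal axis, median of all genes at 0) for goblet-like over club in Control, goblet-like over club in NAPH, and NAPH over Control in goblet-like cells. Mucin maturation genes lie at 1.66 and 1.77 against club cells, and the xenobiotic metabolism list lies at −0.61 for NAPH over Control.

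Between the libraries, the goblet-like cells of NAPH held more Retnla, Lcn2, Msln, Agr2 and Ltf RNA and, relative to the median gene, less Reg3g, Bpifa1 and RNA of some oxidising and conjugating enzymes such as Cyp2a5 and Cyp4b1. Of 7824 genes tested, 314 (4.01%) were at least 2-fold higher in NAPH and 470 (6.01%) at least 2-fold lower relative to the median gene, which was itself 1.27-fold higher in NAPH. Without division by that median the ratios of Reg3g (0.526), Bpifa1 (0.501), Cyp2f2 (0.536), Gsta3 (0.540), Aldh3a1 (0.632) and Nfkbia (0.529) did not reach 2-fold, and the counts were 757 and 218, and with TMM scaling 289 and 503, so the balance of higher to lower genes follows the scaling. Each ratio compares 1 library with 1 library, so the injury cannot be told apart from any other difference between the 2 preparations.

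Retnla was the most abundant of the higher genes. It was at 1090 CPM in Control and 24379 CPM in NAPH members, a ratio of 17.6 (17.0 to 18.2). The median cell held 1.83 per 10,000 in Control and 187 in NAPH, and 43 of 67 NAPH cells lay above the highest Control cell at 110. In club comparator cells Retnla was at 405 and 12217 CPM. Lcn2, a lipocalin that withholds iron from bacteria, was at 38.5 and 892 CPM, a ratio of 18.2 (15.2 to 21.9). It was detected in 61 of 139 Control and 64 of 67 NAPH members, and 29 NAPH cells lay above the highest Control cell. AT2 cells held more Lcn2, 836 and 2999 CPM, and the part of their RNA in the difference was not tested. Msln, the surface protein mesothelin, was at 17.1 and 385 CPM (17.7, 13.5 to 23.4). Lrg1, a secreted leucine-rich glycoprotein of the acute phase, was at 22.3 and 379 CPM (13.4) but within reach of free RNA, with 189 and 2221 CPM in AT2 cells.

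For some mucus genes, a few NAPH cells also lay far above the rest. Agr2 was at 93 CPM in Control and 573 CPM in NAPH, a ratio of 4.84 (4.26 to 5.51), and 12 NAPH cells exceeded the highest Control cell at 10.5 per 10,000. Of the 67 NAPH members 43 lay above the Control median of 0.334, and without the highest cell of each library the Agr2 ratio was 4.80. Muc5ac, the gel-forming mucin known from inflamed airways, was at 11.4 and 196 CPM (13.5, 9.71 to 19.3), but 62.9% of its NAPH UMIs came from 1 cell at 151 per 10,000. Without the highest cell of each library the Muc5ac ratio was 5.41. Muc5ac was detected in 30 of 139 Control and 26 of 67 NAPH members, and after thinning all cells to 3000 UMIs in 2.88% and 17.9%. In AT2 cells, with medians of 7698 and 9623 UMIs, thinned detection of Muc5ac was 0% and 0.232%. Against NAPH club cells the ratio of Muc5ac was 63.8, and it was 27.1 without the highest cell of each class and 0.899 with a gate of 300. Muc5b had a ratio of 1.43 (1.35 to 1.51). Fcgbp, a mucus protein that binds mucins, was at 10.3 and 43.9 CPM (3.35), and Clca1 had a ratio of 1.81 with fewer positive cells in NAPH, 11 of 67 against 39 of 139. With a gate of 300 the Clca1 ratio was 0.865. In the mucin maturation list 5 of 18 genes tested were higher and 0 lower, against 4.01% and 6.01% over all genes.

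Further genes among the 10 highest were Chil4, Trf, Ppic, Clu and Ifitm1. Chil4, a chitinase-like protein of type 2 inflammation, was at 4.85 and 167 CPM (27.1, 16.6 to 47.2). It was found in 15 of 67 NAPH members, of which 1 held 54.6% of the UMIs, and the ratio was 53.4 without the highest cell of each library. Trf, the iron carrier transferrin, was at 538 and 2154 CPM (3.14), the cyclophilin Ppic at 38.5 and 149 CPM (3.03), and the secreted chaperone clusterin, Clu, at 228 and 802 CPM (2.76). Ifitm1 was at 112 and 387 CPM (2.71, 2.39 to 3.08). Ltf was at 377 and 1573 CPM (3.28, 3.07 to 3.51). Among 21 secreted defence genes 9 were higher and 2 lower (6 of the 21 within reach of free RNA), against 4.01% and 6.01% over all genes. One of the higher genes was Dmbt1, a mucosal scavenger receptor protein. It had no UMI in Control members and 56 UMIs in NAPH members, which is at least 31.7-fold higher against a floor of 3 counts over the group.

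Upk3a, a urothelial plaque protein known as a marker of variant club cells, had 0 UMIs in 139 Control members and was at 130 CPM in NAPH members, at least 120-fold higher against the same floor. It was detected in 28 of 67 NAPH members. After thinning to 3000 UMIs it was detected in 22.4% of them (13.1 to 34.2), against 0.386% of NAPH AT2 cells and 29.9% of NAPH club comparator cells. In club comparator cells it was at 6.50 CPM in Control and 382 CPM in NAPH, above the members in both libraries.

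2 secreted defence genes that mark the Control members, Reg3g and Bpifa1, were lower in NAPH. Reg3g was at 4187 CPM in Control and 2202 CPM in NAPH, a ratio of 0.413 (0.398 to 0.428), and the NAPH RNA came from few cells. It was found in 138 of 139 Control and 9 of 67 NAPH members, and after thinning in 90.6% (84.5 to 94.9) and 10.4% (4.30 to 20.3). In AT2 cells thinned detection of Reg3g was 2.84% and 1.003%. The 9 NAPH cells held 924.9, 536.2, 167.8, 110.3, 98.1, 51.1, 22.2, 2.6 and 0.7 per 10,000, and the top cell held 48.1% of the UMIs. Without the highest cell of each library the ratio was 0.228, and among members with Scgb1a1 of at least 1000 it was 0.0972. As a ratio of means over cells it was 0.529, short of 2-fold. Bpifa1 was at 10686 and 5357 CPM (0.394, 0.385 to 0.403). Tff2 was at 1613 and 1150 CPM (0.560, 0.531 to 0.590), which did not reach 2-fold with all cells, and had 0.495 without the highest cell of each library. Scgb3a1 was similar between libraries at 52014 and 72904 CPM (1.10), Bpifb1 was at 4477 and 2436 CPM (0.427), and both set the gate.

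Some enzymes of chemical metabolism were lower in NAPH. Of 40 xenobiotic metabolism genes tested, 15 were lower and 1 (Akr1b8) higher relative to the median gene, against 6.01% lower over all genes. Their median log2 ratio was −0.61 on the same scale. The median gene was 1.27-fold higher in NAPH, and without division by it Cyp2f2, Gsta3 and Aldh3a1, all among the 15, did not reach 2-fold. The cytochrome P450 gene Cyp2a5 was at 129 CPM in Control and 14.8 CPM in NAPH (0.0903, 0.0572 to 0.136), and was detected in 80 of 139 and 8 of 67 cells. Cyp2f2, the P450 known for bioactivating naphthalene in mouse club cells, was at 5235 and 2809 CPM (0.421), with cell medians of 50.1 and 24.6 per 10,000. Cyp4b1 was at 398 and 119 CPM (0.235), Sult1d1 at 333 and 146 CPM (0.344) and the glutathione transferase Gsta3 at 305 and 165 CPM (0.424). These genes were detected in NAPH members at reduced levels. The epoxide hydrolase Ephx1 had 0.350 and Aldh3a1 0.497. NRF2 target genes were lower in 4 of 22 and higher in 0.

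The other genes among the 10 lowest were Pdpn, Cd36, Il13ra1 and Nfkbia. Pdpn, the mucin-type membrane protein podoplanin, was at 108 and 35.2 CPM (0.257), and its ratio to club cells was 88.1 in Control and 2.86 in NAPH. The fatty acid transporter Cd36 was at 338 and 137 CPM (0.318). Il13ra1 was at 117 and 56.8 CPM (0.382), and Nfkbia, the NF-κB inhibitor, at 152 and 80.3 CPM (0.415). Scgb1a1 was at 490277 and 330407 CPM (0.529). In other lists, of 16 interferon response genes 3 were higher and 0 lower, of 36 transcription factors 4 and 3, of 24 tight junction and adhesion genes 2 and 2, and of 14 p53 target genes 0 and 2. Of 15 type 2 response genes 5 were higher and 3 lower. These counts stand beside 4.01% higher and 6.01% lower over all genes tested.

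**Figure D4:**
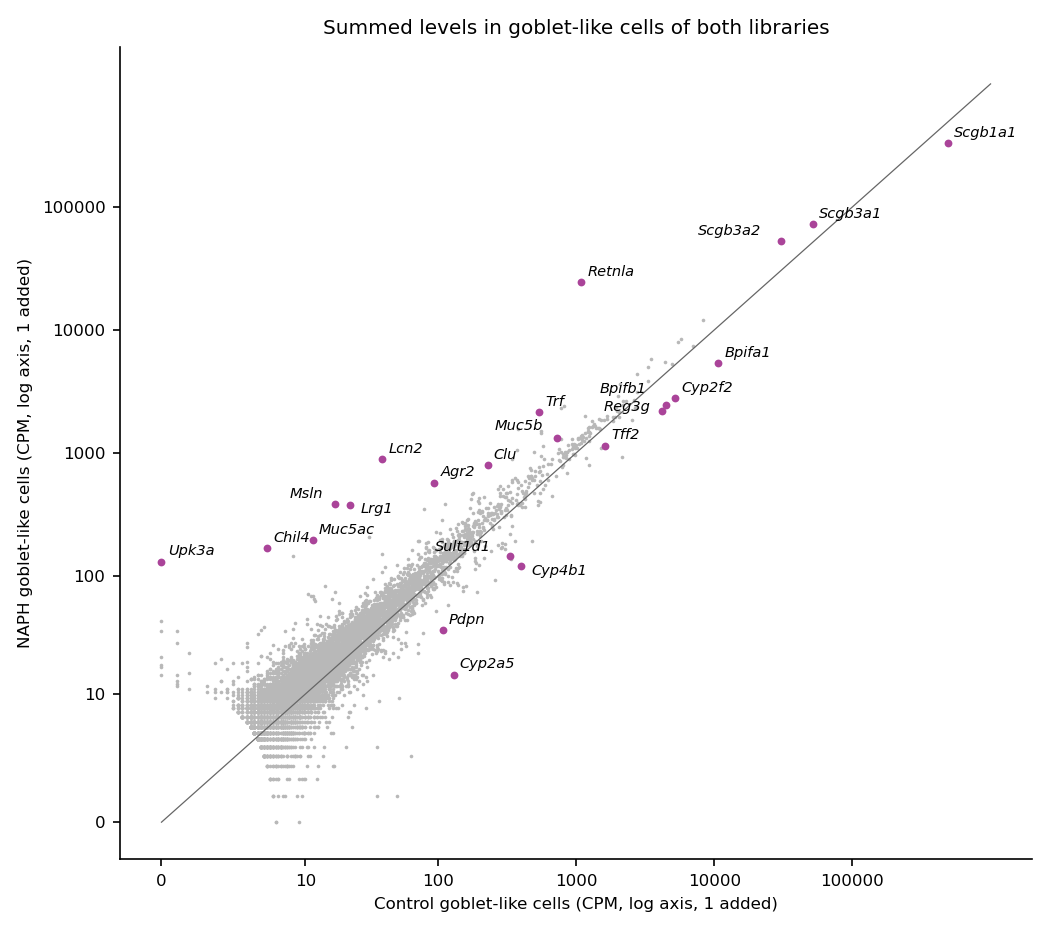
Summed level of each gene in goblet-like cells of Control (horizontal axis) and NAPH (vertical axis), in CPM on log axes with 1 added, 1 point a gene, with selected genes named and a line of equal CPM. Retnla, Lcn2 and Msln lie well above the diagonal, and Cyp2a5 and Cyp4b1 below it.

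The NAPH members were not alike, and the 14 cells with Tff2 of at least 10 per 10,000 held no Upk3a UMIs. Control members were more even for Tff2: 100 of 139 held at least 10 per 10,000, with 19 cells between 5 and 10 and 63 between 10 and 20 near that value. In NAPH 14 of 67 did, with 4 cells between 5 and 10 and 4 between 10 and 20, while 34 cells held less than 1. A value of 10 is a point in a range and not a border between types. The 14 NAPH cells had a median of 14.6 per 10,000 for Agr2, against 0.513 in the other 53. Muc5b had medians of 26.3 and 6.13 in these cells, and S100a6 of 18.5 and 1.38. Clca1 UMIs were found in 8 of the 14 and in 3 of the 53. Retnla had medians of 29.8 and 238, and 4 of the 14 held at least 100. Muc5b of at least 10 was found in 21 of the 43 NAPH cells with Retnla of at least 100 and in 14 of the other 24. In the Tff2 split, Scgb1a1 had medians of 2253 and 3484. Lcn2 was similar in both, with medians of 3.80 and 3.82. The median depths were 19922.5 and 26420 UMIs.

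Upk3a was found in 0 of the 14 cells and 28 of the 53. Of those 28 cells, 18 also held Tff2 UMIs, at lower levels, so the 2 genes were apart only at the higher Tff2 level. The 23 NAPH members with at least 1 per 10,000 of Upk3a had a highest Tff2 value of 1.95, a median Retnla of 258 and a median Muc5b of 3.43. The other 44 had medians of 133 for Retnla and 14.3 for Muc5b. Of 9 NAPH cells with Reg3g, 1 also held Upk3a UMIs. All 11 NAPH cells with Clca1 UMIs also held Tff2 UMIs, as did all 39 in Control. Tff2 UMIs were found in 136 of all 139 Control members, so the Control count is near the share over all members. In NAPH, Tff2 UMIs were found in 13 of the 23 members with at least 1 per 10,000 of Upk3a and in 35 of the other 44. Leaving out the members with Upk3a UMIs moved the NAPH over Control ratio of Tff2 from 0.560 to 0.955 and that of Muc5b from 1.43 to 2.03, and left that of Retnla at 16.4. At the level of single cells, 12 NAPH cells exceeded the Control median of Tff2 and 6 that of Reg3g, while 39 exceeded that of Muc5b and 63 that of Retnla.

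**Figure D5:**
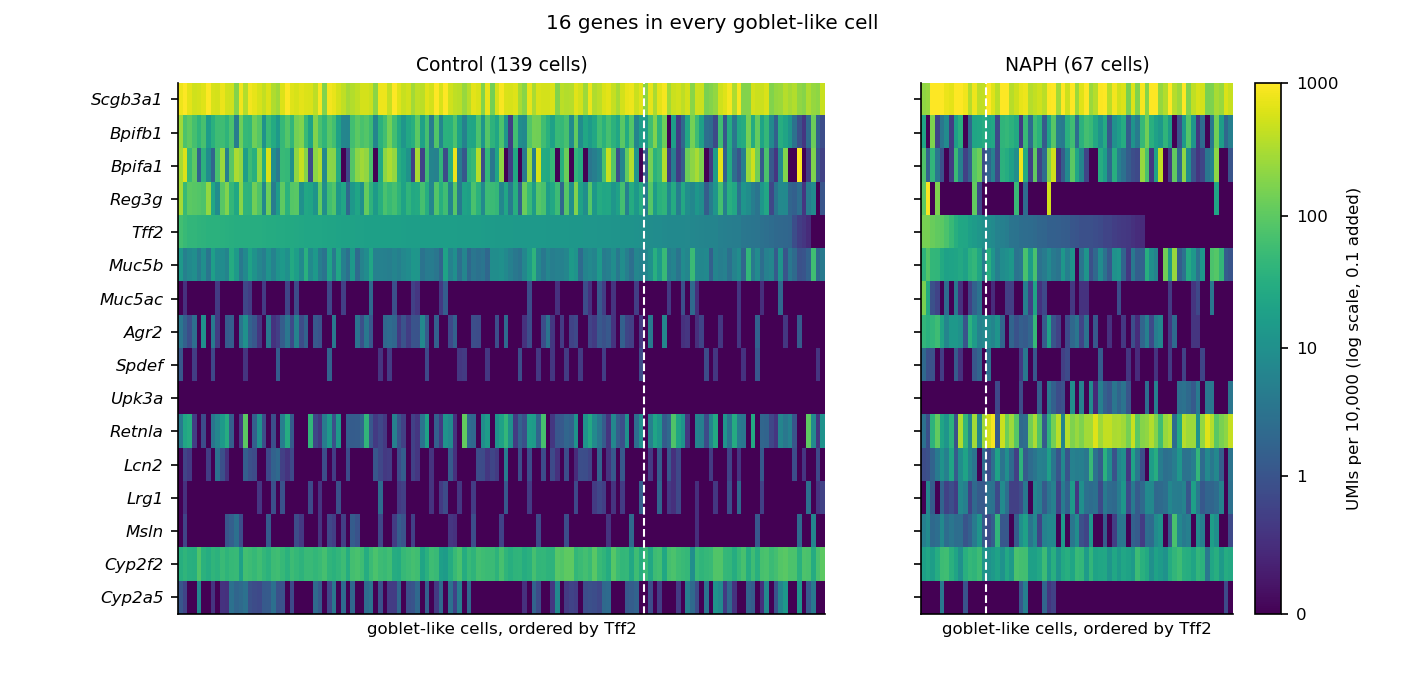
UMIs per 10,000 of 16 genes (rows, colour on a log scale) in every goblet-like cell (columns, ordered by Tff2, with a dashed line where Tff2 passes 10 per 10,000) of Control (139 cells) and NAPH (67 cells). In NAPH, Tff2 of at least 10 per 10,000 is found in 14 cells, which hold no Upk3a UMIs, while Retnla of at least 100 per 10,000 is found in 43 NAPH cells and 2 Control cells.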

How the data were processed

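Droplet 3' libraries of Epcam+ lung cells were used, 1 Control and 1 NAPH. The authors deposited unnormalized UMI counts for every gene in every barcode. The submitters' processing notes name Cell Ranger and mm10, while the sources used here give neither its version nor its settings and cell calling. All deposited barcodes were kept. Of 28692 gene IDs, 28339 were found in GENCODE vM21 (GRCm38). Levels were summed per class and library with Python 3.11.15, numpy 2.4.6, scipy 1.17.1 and pandas 2.3.3, and drawn with matplotlib 3.10.9. Genes with at least 20 UMIs over the 2 groups were tested against a 2-fold threshold; the computation was checked on simulated counts. Intervals are exact Poisson or binomial, at 95%. The sources used here do not say how reads were split between near copies such as Chil3 and Chil4.

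The members and lists were chosen with earlier results of these data known. Named genes are the 10 highest and 10 lowest in each comparison (against club cells, by the library with the ratio nearer to 1) with at least 100 CPM in a group and 50 UMIs, passing over ribosomal, mitochondrial, haemoglobin, predicted and gate genes, Xist, Tsix and Y-linked genes (other X-linked genes were kept), markers of other cell types and genes within reach of free RNA (below 0.2 times another class), and up to 2 highest and 2 lowest of each list with at least 30 UMIs. The text prints only some of the list members that this names, and 1 gene is not reported here. List members named beyond the rule were chosen after their values were seen. Doublets were scored with Scrublet in scanpy 1.11.5. Its automatic threshold called 0.243% and 0%, so 87 and 109 cells were removed at the expected rate as an alternative, of which 1 and 0 were members. The other alternatives were gates of 100 and 300, depth filters, thinning to 3000 UMIs, other scalings, other filters, other comparators and, chosen after seeing the data, leaving out the highest cell of each group.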

Additional observations from a re-analysis of the deposited data

Results flagged for a closer look

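2 genes had ratios to club comparator cells on opposite sides of 2-fold in the 2 libraries, and the difference between the libraries was not tested. Klk10, a kallikrein-family serine protease, was at 10.3 CPM in Control goblet-like cells and 1.72 CPM in Control club cells, a ratio of 5.15, and at 10.5 and 39.8 CPM in NAPH, a ratio of 0.276. Its level in the goblet-like cells was thus similar in both libraries, while that in club comparator cells was not. Slpi, a secreted inhibitor of neutrophil elastase, was at 7.70 and 1.72 CPM in Control, a ratio of 3.87, and at 21.0 and 60.7 CPM in NAPH, a ratio of 0.361. The Control level of Slpi lay within reach of free RNA, with 64.2 CPM in AT2 cells.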

How the results depend on the processing

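No paired analysis was possible because each group is 1 library. Of the counts and shares computed under each alternative 102 stayed within 1.5 times the main count or within the counting interval and 26 did not. Of the ratios of named genes, 6503 stayed within the counting interval, 618 moved beyond it, and 11 that were at least 2-fold changed sign. Sign changes of ratios below 2-fold were not counted apart and lie among the 6503 and 618. The Control share was 3.52% with a gate of 300. Thinned to 3000 UMIs, 348 genes were higher and 474 lower than in club cells in Control, 156 and 176 in NAPH and 56 and 53 in both libraries, and 102 were higher and 121 lower in NAPH than in Control, where fewer genes could be tested. With genes of at least 1 UMI, the counts were 2036 higher in Control, 1211 higher and 1017 lower in NAPH, 423 and 240 in both, and 1258 and 918 for NAPH over Control. With at least 50 UMIs they were 408 and 467, 163 and 149, 92 and 71, and 118 and 160. Without division by the median, 757 genes were higher and 218 lower in NAPH than in Control. Among ratios of at least 2-fold, the log2 ratios that changed sign were those of Isg15 (−2.73 against NAPH club cells and −1.96 for NAPH over Control with a gate of 300, −3.42 for NAPH over Control without cells holding Upk3a), Muc5ac (−0.15 against NAPH club cells with a gate of 300), Chil3 (−0.26) and Ctss (−0.96) against Control club cells without doublets, and −0.11 and −0.88 without the highest cell. Hk2 (0.19) and Pdia5 (−0.070) against Control club cells, and Ccl20 (1.59) for NAPH over Control, changed sign after thinning. Without the highest cell of each class the log2 ratios of Aqp3 and Sox21 against Control club cells were 6.25 and 6.24 in place of 5.40, and that of Ifit1 against NAPH club cells was 3.50 in place of 2.68. The cause was not tested. Depth limits genes below about 20 UMIs over both groups, and with 67 NAPH members single cells can set the ratios of Muc5ac, Reg3g and Chil4.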

Other observations

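Kcne3, a regulatory subunit of potassium channels in the list of ion and water transport genes, was at 44.2 CPM in Control goblet-like cells against 0.444 CPM in club comparator cells and at 84.6 against 5.23 CPM in NAPH, ratios of 86.0 and 16.9. Some further genes fall outside the rule for named genes and were chosen after their values were seen. The claudin-family gene Cldn22 had ratios of 54.7 (32.3 to 99.8) and 21.4 (6.81 to 108, against 3 UMIs in club cells), the calmodulin-like gene Calml3 80.2 and 10.3, the membrane protein gene Tmem213 40.8 and 12.4, the kinase gene Sgk1 25.4 and 9.03 and the oligopeptide transporter Slc15a2 17.8 and 4.55. The transcription factor Pax9 was at 50 UMIs in Control members against 5 in club cells, a ratio of 44.4, and at 16 against 5 UMIs in NAPH, a ratio of 5.13. All 7 genes were thus higher than in club cells in either library, and in each the ratio was smaller in NAPH. The differences between the libraries were not tested.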
